A study of Mus musculus with 27 samples.

Results

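The suppressors of cytokine signalling are a family of 8 intracellular proteins, Socs1 to Socs7 and Cish, that were taken here from the chromatin-associated RNA of mouse macrophages by matching the gene symbol. All 8 symbols were found among the 45070 genes of the table, and each matched 1 row. Bone marrow-derived macrophages (BMDMs) of wild type genotype were used, grown from the marrow of male C57/BL6 mice aged 6 to 8 weeks. All cells were first held in DMSO for 1 h, the solvent that carries kinase inhibitors in other experiments of the study. They were then left untreated, or received lipopolysaccharide (LPS) at 10 ng/ml or interleukin-4 (IL-4) at 10 ng/ml for 0.5 h, 1 h, 2 h or 4 h. Every one of these 9 groups had 3 replicates, 27 samples in all. The labels do not say whether replicates came from separate mice or cultures, so the p-values measure the spread between these samples, which may be technical. BMDMs are a cultured model of macrophages and no other tissue was sampled.

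Cytokines that bind receptors of the JAK-STAT class switch on Janus kinases (JAKs), which phosphorylate STAT transcription factors, and STATs in turn induce several SOCS genes. SOCS proteins carry an SH2 domain that binds phosphotyrosine and a SOCS box that recruits elongin B, elongin C and a cullin to tag bound proteins with ubiquitin, which closes a negative feedback loop. Cish and Socs2 are best known as STAT5 targets that curb growth factor and growth hormone receptors. Socs1 and Socs3 can also block JAK activity through a kinase inhibitory region, Socs1 in interferon and IL-4 signalling and Socs3 in signalling through the gp130 chain. Socs4 and Socs5 are linked to the epidermal growth factor receptor, and Socs6 and Socs7 to receptor tyrosine kinases and insulin signalling. LPS is sensed by TLR4 and IL-4 by its own receptor, which signals through STAT6.

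Promoter sequences, 250 bases before to 50 bases after the annotated start (RefSeq, GRCm38.p6), are given for 4 members. These were not chosen by response, as no window of Socs2, Socs5 and Socs7 was available and that of Socs6 was not used. They are the 3 members that rose furthest after LPS and Socs4, which did not pass the test after either stimulus. Capitals mark matches to the STAT motif TTCNNNGAA and to the interferon response motif GAAANNGAAA. The second motif was added once the sequences had been read. The lines are, in the direction of transcription, Cish on the plus strand at chr9:107296409-107296708, Socs3 on the minus strand at chr11:117969317-117969616, Socs1 on the minus strand at chr16:10785487-10785786 and Socs4 on the plus strand at chr14:47276670-47276969.
Cish: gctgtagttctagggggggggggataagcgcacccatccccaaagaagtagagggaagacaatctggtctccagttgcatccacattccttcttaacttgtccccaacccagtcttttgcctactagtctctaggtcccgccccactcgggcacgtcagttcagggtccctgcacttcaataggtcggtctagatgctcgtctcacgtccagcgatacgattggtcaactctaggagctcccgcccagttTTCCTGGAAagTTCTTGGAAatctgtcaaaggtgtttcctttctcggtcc
Socs3: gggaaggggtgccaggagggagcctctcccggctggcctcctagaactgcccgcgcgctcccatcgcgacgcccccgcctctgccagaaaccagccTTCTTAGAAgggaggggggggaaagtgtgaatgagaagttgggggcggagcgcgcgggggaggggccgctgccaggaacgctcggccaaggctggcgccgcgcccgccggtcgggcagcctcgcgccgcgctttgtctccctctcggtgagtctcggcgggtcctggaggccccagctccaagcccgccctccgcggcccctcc
Socs1: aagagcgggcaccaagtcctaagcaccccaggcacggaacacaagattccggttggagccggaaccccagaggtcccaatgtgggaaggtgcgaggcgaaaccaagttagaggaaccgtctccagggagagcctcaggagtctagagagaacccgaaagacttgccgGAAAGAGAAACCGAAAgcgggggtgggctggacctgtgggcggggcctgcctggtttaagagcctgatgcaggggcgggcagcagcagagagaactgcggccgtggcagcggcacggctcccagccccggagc
Socs4: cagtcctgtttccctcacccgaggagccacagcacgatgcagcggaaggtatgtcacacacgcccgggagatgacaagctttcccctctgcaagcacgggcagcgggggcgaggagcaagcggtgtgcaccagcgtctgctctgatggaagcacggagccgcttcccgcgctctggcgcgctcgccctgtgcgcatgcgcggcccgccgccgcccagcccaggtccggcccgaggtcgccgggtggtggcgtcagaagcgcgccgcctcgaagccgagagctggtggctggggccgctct

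The Cish window held 2 STAT matches, at 0 to 8 and at 11 to 19 bases downstream of the start, TTCCTGGAA and TTCTTGGAA. The Socs3 window held 1, TTCTTAGAA, at -154 to -146. No match of these letters lay in the windows of Socs1 and Socs4. Because its fixed letters are palindromic, every match holds on both strands. Of all 32851 windows, 8.30% held it. A variant with TTC and GAA 4 bases apart, the spacing associated with STAT6, was in 6.95% of all windows and in none of the 4 shown. Socs1 held 2 matches to the interferon response motif that overlap by 4 letters, GAAAGAGAAA at -83 to -74 and GAAACCGAAA at -77 to -68, and 3.44% of all windows held this motif. A loose NF-kB motif, GGG and CC 5 bases apart, was in all 4 windows and in 50.8% of all windows. These matches are descriptions of letters and not of binding.

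The genes are spread over 7 chromosomes, given here with coordinates of the deposited table (mm10, GRCm38). Socs1 (ENSMUSG00000038037) lies on the minus strand at chr16:10783808-10785536, Socs2 (ENSMUSG00000020027) on the minus strand at chr10:95411490-95416857, and Socs3 (ENSMUSG00000053113) on the minus strand at chr11:117966079-117969366. Socs4 (ENSMUSG00000048379) lies on the plus strand at chr14:47276920-47296102, Socs5 (ENSMUSG00000037104) on the plus strand at chr17:87107679-87137585, Socs7 (ENSMUSG00000038485) on the plus strand at chr11:97362292-97398542 and Cish (ENSMUSG00000032578) on the plus strand at chr9:107296659-107302784. Socs6 (ENSMUSG00000056153) is on the minus strand of chromosome 18. Gene spans ran from 1729 bases for Socs1 to 36251 bases for Socs7. The 4 members with low levels before stimulation, Socs1, Socs2, Socs3 and Cish, span at most 6126 bases, while Socs4 to Socs7 span at least 19183 bases. Only Socs2 was overlapped by another annotated gene, the non-coding Gm33230.

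Values are normalised read counts, scaled by the authors on invariant genes and rounded. Their sum was 2469768 to 2790981 over untreated and IL-4 samples together (15 samples), and 3571492 to 4058199 over the 12 LPS samples. These sums are not depths, and the number of reads per sample is unknown. The 8 macrophage markers summed to 8774 to 9782 in untreated, 9437 to 17355 in LPS and 10404 to 13190 in IL-4 samples. Cd3d, Ncr1, Ly6g and the other markers fixed for T and NK cells, neutrophils, mast cells and erythroid cells summed to at most 34 per list and sample. Dendritic cell markers reached 98 after LPS and 24 after IL-4 (6 to 9 in untreated), fibroblast markers 218 and 209 (37 to 89 in untreated), and their part in the results was not tested. The median log2 change of all 13901 tested genes was -0.24, -0.30, -0.29 and -0.26 at 0.5 h, 1 h, 2 h and 4 h of LPS and lay between -0.02 and 0.02 after IL-4.

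All 8 members passed the low-value filter of at least 10 in at least 3 samples. Socs1, Socs2, Socs3 and Cish passed it through stimulated samples only. For Socs2 these were IL-4 samples only. For Socs3 they were the LPS samples (among the others 1 IL-4 sample, at 11, reached the minimum of 10). A difference was thus to be found in these 4 once they were tested. Their adjusted p against untreated cells, given below, is therefore no support for a rise. Over the LPS course 6 of 8 members passed the F test for any change (limma on log2(value + 1), Benjamini-Hochberg adjusted over all tested genes, threshold 0.05), beside 87.6% of all tested genes. Over the IL-4 course 6 of 8 passed, beside 40.3% of all tested genes. Socs1, Socs3, Socs5, Socs7 and Cish passed in both courses, Socs6 in the LPS course, Socs2 in the IL-4 course and Socs4 in neither. These fits did not pair samples by replicate number. With that number as a block, Socs6 also passed the F test in the IL-4 course (adjusted p = 0.00145). All differences below are on the log2(value + 1) scale, with the standard error (SE).

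**Figure D1:**
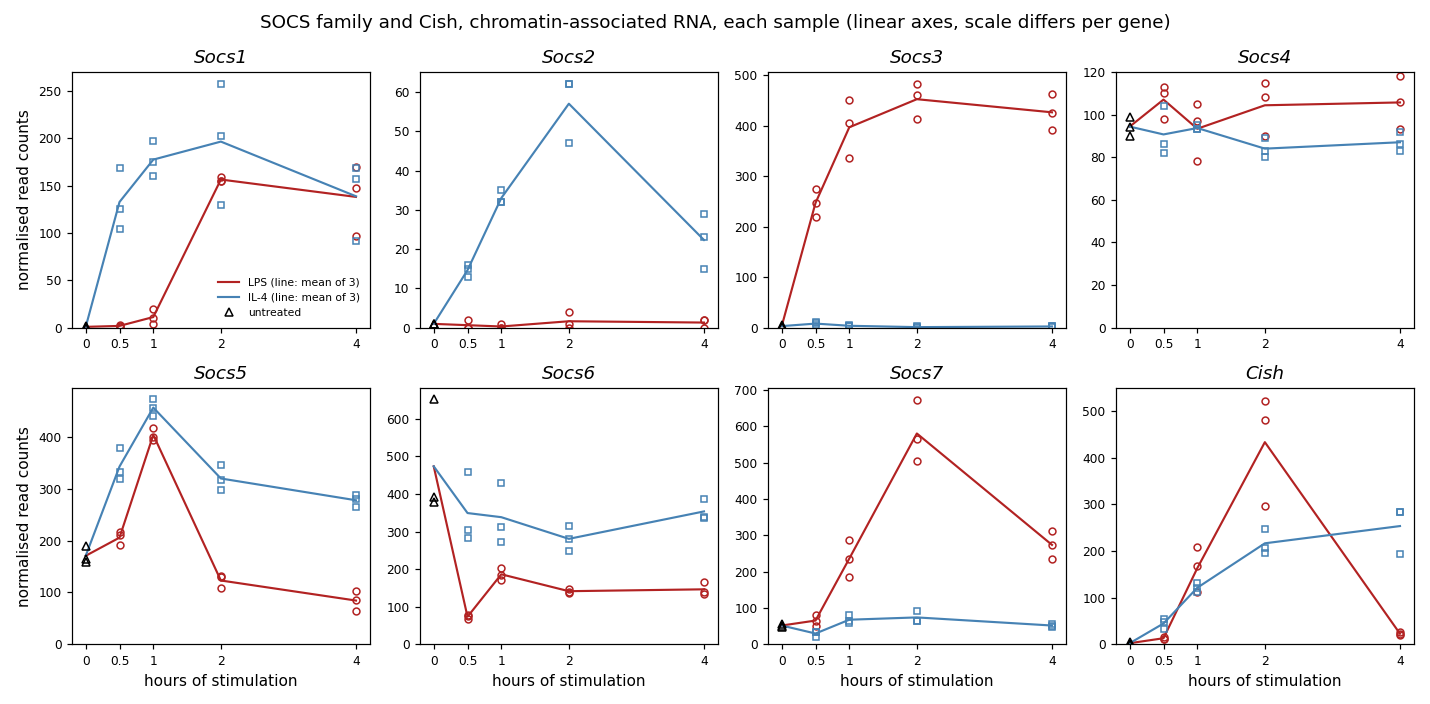
Normalised read counts (vertical axis, linear) of the 8 members in each sample against hours of stimulation, with untreated samples at 0 (triangles), LPS as circles, IL-4 as squares and lines through the means of 3 replicates. Socs3 sits at 219 to 483 in all LPS samples and at 11 or less in all IL-4 samples, Socs2 is above 4 in IL-4 samples alone, and Cish under LPS falls from a mean of 434 at 2 h to 22.7 at 4 h.

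Socs3, the feedback inhibitor of gp130 receptors, rose after LPS at every time and was near 0 in all other samples. Untreated cells held 3, 2 and 5 normalised read counts in replicates 1, 2 and 3, the order used throughout. After LPS the values were 248, 219, 275 (0.5 h), 451, 336, 405 (1 h), 483, 414, 462 (2 h) and 392, 463, 426 (4 h). Every LPS sample lay above every untreated sample, and the level at 0.5 h lay below those of all later times. The log2 difference from untreated was 5.89 (SE 0.20, adjusted p = 3.57e-12) at 0.5 h and 6.77 (SE 0.20, adjusted p = 4.70e-13) at 2 h. At 2 h it was 5.35 with a pseudocount of 8 and 6.96 with 0.5. Socs3 passed the filter through the LPS samples, so a rise was to be found. The step from 0.5 to 1 h passed (0.68, SE 0.20, adjusted p = 0.0117), although without replicate 1 of all groups it had an adjusted p of 0.0543, and later steps did not. After IL-4, Socs3 was at 5, 9, 11 (0.5 h), 4, 3, 5 (1 h), 3, 0, 1 (2 h) and 2, 3, 3 (4 h). These ranges touch or overlap that of untreated cells at each time. No IL-4 time point passed (adjusted p from 0.0992 to 0.801). Some other settings did pass 0.5 h, namely all 27 samples in 1 fit (1.11, adjusted p = 0.0341), a pseudocount of 8 (0.52, adjusted p = 0.0344) and array weights (1.31, adjusted p = 0.0434). At 2 h Socs3 passed in the fit of 27 (-1.06, adjusted p = 0.0271), with array weights (-1.32, adjusted p = 0.0194), without IL-4 2 h replicate 1 (-1.56, adjusted p = 0.0143) and without replicate 1 of all groups (-1.58, adjusted p = 0.0195). The course-wide F test for IL-4 (adjusted p = 0.0167) was lost without IL-4 0.5 h replicate 2 (0.0507) or replicate 3 (0.0565) and without replicate 2 (0.200) or 3 (0.282) of all groups.

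Socs1, the inhibitor of interferon and IL-4 signalling, was induced by both stimuli, at 0.5 h by IL-4 and at 1 h by LPS. Untreated cells held 0, 2 and 1. After IL-4 the values were 104, 125, 169 (0.5 h), 160, 197, 175 (1 h), 202, 130, 257 (2 h) and 91, 168, 157 (4 h). All 12 IL-4 samples were thus at 91 or more, and none of the steps between IL-4 times passed. After LPS the values were 3, 1, 2 (0.5 h), 20, 4, 10 (1 h), 155, 155, 159 (2 h) and 97, 170, 147 (4 h). The early LPS samples overlapped untreated cells, those at 1 h were between, and those at 2 and 4 h reached the range of the IL-4 samples. The difference from untreated after LPS was 0.67 (SE 0.48, adjusted p = 0.260) at 0.5 h, 2.53 (SE 0.48, adjusted p = 0.000298) at 1 h and 6.44 (SE 0.48, adjusted p = 1.15e-08) at 2 h. After IL-4 it was 6.17 (SE 0.37, adjusted p = 1.20e-07) at 0.5 h and 6.71 (SE 0.37, adjusted p = 2.21e-08) at 2 h. With untreated values this low the size depends on the pseudocount. The differences at 2 h ran from 4.20 with 8 to 6.99 with 0.5 for LPS, and from 4.46 to 7.26 for IL-4. Socs1 passed the filter through stimulated samples only, so its rises were to be found.

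Cish, the founding member of the family, rose after both stimuli, and fell again between 2 and 4 h of LPS. Untreated cells held 1, 5 and 1. After LPS the values were 12, 11, 16 (0.5 h), 113, 168, 209 (1 h), 296, 523, 482 (2 h) and 27, 19, 22 (4 h). The 4 h samples were all below those of 1 and 2 h and still above untreated cells. The difference from untreated was 2.26 (SE 0.38, adjusted p = 0.000140), 5.79 (SE 0.38, adjusted p = 4.24e-09), 7.19 (SE 0.38, adjusted p = 2.26e-10) and 3.02 (SE 0.38, adjusted p = 4.56e-06) at the 4 successive times. The step from 2 to 4 h was -4.17 (SE 0.38, adjusted p = 1.48e-06), and the mean at 4 h was 5.23% of that at 2 h. After IL-4 the values were 54, 32, 48 (0.5 h), 120, 132, 112 (1 h), 195, 207, 248 (2 h) and 193, 284, 284 (4 h). The IL-4 samples of 2 and 4 h overlapped each other and lay above all those of earlier times. The difference was 3.95 (SE 0.35, adjusted p = 3.31e-06) at 0.5 h and 6.44 (SE 0.35, adjusted p = 2.55e-08) at 4 h. With pseudocounts of 8 and 0.5 the largest differences were 5.40 and 7.51 after LPS and 4.66 and 6.76 after IL-4. Cish also passed the filter through stimulated samples only, so a rise was to be found.

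Socs2, the growth hormone receptor regulator, was above 4 in IL-4 samples alone. Untreated cells held 1, 1 and 1, and the 12 LPS samples ran from 0 to 4 with a median of 0.5. After IL-4 the values were 16, 13, 15 (0.5 h), 35, 32, 32 (1 h), 62, 47, 62 (2 h) and 29, 23, 15 (4 h). The lowest IL-4 sample, at 13, was above the highest of all other samples, at 4. The difference from untreated was 2.96 (SE 0.22, adjusted p = 6.74e-07) at 0.5 h, 4.85 (SE 0.22, adjusted p = 5.17e-09) at 2 h and 3.50 (SE 0.22, adjusted p = 9.61e-08) at 4 h. At 2 h it was 2.84 with a pseudocount of 8 and 5.25 with 0.5. Because Socs2 passed the filter through IL-4 samples only, these differences were to be found. The step from 2 to 4 h passed (-1.35, SE 0.22, adjusted p = 0.00295). No LPS time point passed (adjusted p from 0.362 to 0.943), and with values of 0 to 4 a change after LPS was not detectable at these levels. The overlapping Gm33230 was not tested, and whether the counting used strand is not given in the sources used here, so reads of Gm33230 cannot be told apart from those of Socs2.

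Socs5 rose after both stimuli with its highest level at 1 h, and then fell below the untreated level after LPS. Untreated cells held 159, 164 and 189. After LPS the values were 216, 210, 191 (0.5 h), 394, 400, 417 (1 h), 131, 108, 130 (2 h) and 103, 85, 65 (4 h). The samples at 1 h were above, and those at 2 and 4 h below, every untreated sample. The mean at 1 h was 2.37 times and that at 4 h 0.494 times the untreated mean, with differences of 1.24 (SE 0.15, adjusted p = 4.74e-06) and -1.03 (SE 0.15, adjusted p = 2.75e-05). The smaller fall at 2 h (-0.47, SE 0.15, adjusted p = 0.0140) was lost without untreated replicate 3 (adjusted p = 0.0632), without LPS 2 h replicate 2 (0.0641), and under another scaling of the libraries (-0.22, adjusted p = 0.262). After IL-4 the values were 318, 378, 332 (0.5 h), 440, 456, 473 (1 h), 345, 297, 317 (2 h) and 281, 287, 265 (4 h). All 12 IL-4 samples were above every untreated sample. The IL-4 difference was 1.00 (SE 0.09, adjusted p = 3.72e-06) at 0.5 h, 1.42 (SE 0.09, adjusted p = 8.84e-08) at 1 h and 0.70 (SE 0.09, adjusted p = 5.43e-05) at 4 h, and the mean at 1 h was 2.67 times that of untreated cells.

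Socs7, which can bind insulin receptor substrates and adaptor proteins, rose after LPS from 1 h. Untreated cells held 57, 50 and 48. After LPS the values were 65, 51, 80 (0.5 h), 288, 235, 185 (1 h), 672, 564, 505 (2 h) and 313, 272, 236 (4 h). The samples at 0.5 h overlapped untreated cells, and those at 2 h were above all other samples of the study. The mean at 2 h was 11.2 times the untreated mean, a difference of 3.46 (SE 0.19, adjusted p = 3.57e-10), and the step from 2 to 4 h was -1.08 (SE 0.19, adjusted p = 0.000741). After IL-4 the values were 35, 21, 33 (0.5 h), 82, 63, 58 (1 h), 93, 64, 65 (2 h) and 57, 51, 47 (4 h). The 0.5 h samples were below and the 1 and 2 h samples above all untreated samples, with small margins. The IL-4 F test passed (adjusted p = 0.00137), and was lost without replicate 2 of all groups (0.0639). At 0.5 h the difference was -0.81 (SE 0.21, adjusted p = 0.0152), which was lost without untreated replicate 1 (0.0547), without IL-4 0.5 h replicate 2 (-0.59, adjusted p = 0.0683) and without replicate 2 (0.243) or 3 (0.113) of all groups. At 2 h it was 0.49 (SE 0.21, adjusted p = 0.0976), and adjusted p fell to 0.0199 when replicate number entered as a block.

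Socs6, which binds receptor tyrosine kinases such as Kit, was lower after LPS at every time. Untreated cells held 652, 378 and 391. After LPS the values were 78, 74, 68 (0.5 h), 172, 202, 185 (1 h), 148, 136, 140 (2 h) and 135, 139, 165 (4 h). Every LPS sample was below every untreated sample, and the lowest level was at the earliest time. The mean at 0.5 h was 0.155 times and that at 1 h 0.393 times the untreated mean, with differences of -2.63 (SE 0.18, adjusted p = 8.95e-09) and -1.30 (SE 0.18, adjusted p = 1.23e-05). The rise from 0.5 to 1 h passed (1.33, SE 0.18, adjusted p = 1.70e-05), while the later steps did not. After IL-4 the values were 459, 284, 305 (0.5 h), 430, 312, 273 (1 h), 314, 279, 249 (2 h) and 388, 335, 338 (4 h). Replicate 1 was the highest of its group at each IL-4 time, as in untreated cells. The IL-4 F test had an adjusted p of 0.161, and of 0.00145 when replicate number entered as a block. At 2 h the difference was -0.71 (SE 0.23, adjusted p = 0.0317), and it was lost without untreated replicate 1 (-0.46, adjusted p = 0.133) and without IL-4 2 h replicate 2 (0.0746) or 3 (0.107). At 0.5, 1 and 4 h the differences of -0.42, -0.46 and -0.38 had adjusted p of 0.254, 0.183 and 0.264, and of 0.0122, 0.00549 and 0.0164 with the block.

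Socs4, a regulator of the epidermal growth factor receptor, had similar values in all groups. It was at 90, 94 and 99 in untreated cells, and ran from 78 to 118 with a median of 106 over the 12 LPS samples and from 80 to 104 with a median of 87.5 over the 12 IL-4 samples. All neighbouring groups in the order of its means overlapped. The differences from untreated ran from -0.03 to 0.18 after LPS and from -0.17 to -0.01 after IL-4 (SE 0.15 and 0.10, adjusted p from 0.258 to 0.971). Its LPS differences depend on how the libraries are scaled. With equal totals in all libraries they were -0.60, -0.52 and -0.45 at 1, 2 and 4 h, below 0 and past the threshold (adjusted p = 0.00246, 0.00666 and 0.0158), and with median-of-ratios scaling they were 0.43 at 0.5 h and 0.40 at 4 h (adjusted p = 0.0376 and 0.0456).

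**Figure D2:**
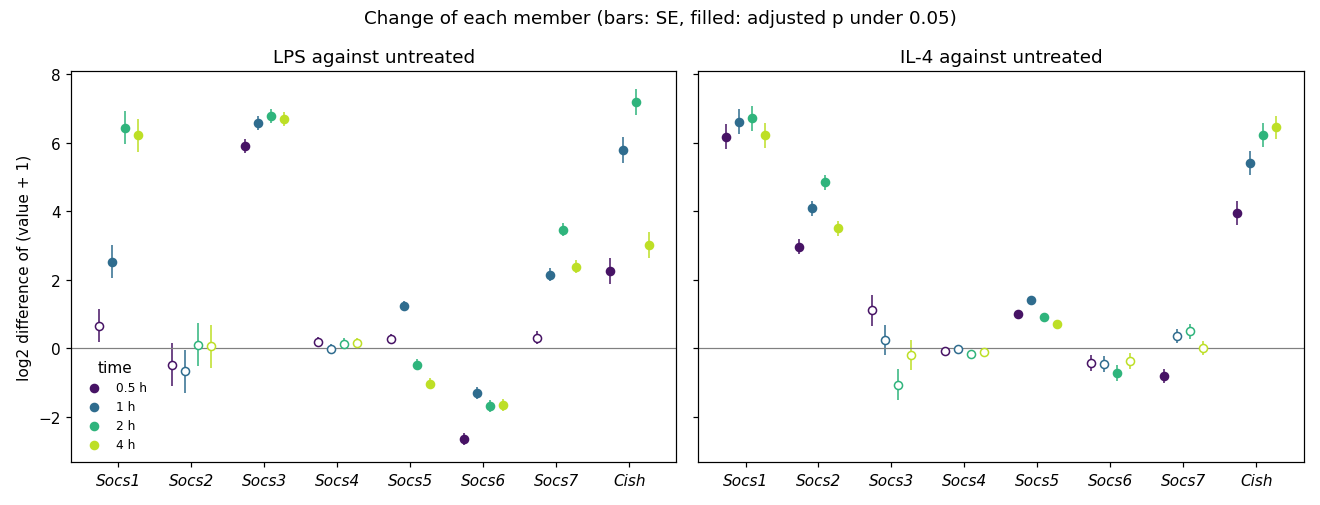
Log2 difference of (value + 1) from untreated cells (vertical axis) for the 8 members (horizontal axis) at 0.5 h, 1 h, 2 h and 4 h of LPS (left) and IL-4 (right). Bars are SE, filled points passed the threshold of 0.05 on adjusted p, and open points did not. Socs6 is below 0 at all LPS times, Socs5 crosses 0 between 1 and 2 h of LPS, and Socs4 stays within 0.18 of 0.

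Counted by time, 2 members were higher and 1 lower after 0.5 h of LPS, beside 19.6% and 34.4% of all tested genes. At 1 h, 5 were higher and 1 lower (24.8% and 39.0% of all genes). At 2 h, 4 were higher and 2 lower (26.9% and 39.0%), and at 4 h again 4 and 2 (25.9% and 37.6%). The median tested gene was lower after LPS (above), and Socs6 fell by more than that median at each time. The balance of all genes depends on the scaling of the libraries. With equal totals 11.7% to 17.5% of all genes were higher and 52.2% to 57.4% lower at the LPS times, and 2, 5, 4 and 4 members were higher and 1, 2, 3 and 3 lower in order of time. With median-of-ratios scaling 25.8% to 32.1% were higher and 27.1% to 32.6% lower, with 5, 5, 4 and 5 members higher and 1, 1, 1 and 2 lower, and Socs5 (adjusted p = 0.0179) and Socs7 (0.0386) then passed at 0.5 h. After IL-4, 4 members were higher at every time, Socs1, Socs2, Socs5 and Cish. Beside them, 8.15%, 11.1%, 14.3% and 13.4% of all tested genes were higher at 0.5 h, 1 h, 2 h and 4 h. Socs1, Socs2, Socs3 and Cish had passed the filter through stimulated samples only, so their rises in these counts were to be found. Lower after IL-4 were Socs7 at 0.5 h and Socs6 at 2 h, beside 8.14% and 13.2% of all genes, and no member at 1 and 4 h, beside 9.83% and 12.5%. With replicate number as a block, Socs6 was lower at all 4 IL-4 times, Socs7 also at 0.5 h, and Socs7 joined the higher members at 2 h, while 11.3% to 17.7% of all genes were then higher and 12.2% to 19.0% lower. With equal totals 6.73% of all genes were higher and 14.7% lower after 0.5 h of IL-4, and the counts of higher members after IL-4 were 4 at each time under all 3 scalings. Since both courses share the untreated samples, these counts are not independent of each other.

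Steps between successive times show where the courses turned. From 0.5 to 1 h of LPS, 6 members stepped up, all but Socs2 and Socs4, and 49.7% of all genes passed in either direction. From 1 to 2 h, Socs1 (3.91), Socs7 (1.31) and Cish (1.41) stepped up and Socs5 stepped down (-1.71), beside 43.3% of all genes. From 2 to 4 h, Socs5 (-0.56), Socs7 (-1.08) and Cish (-4.17) stepped down, beside 22.9%. The last Socs5 step (adjusted p = 0.0156) was lost without LPS 2 h replicate 1 (0.0522) or 3 (0.0554) and without LPS 4 h replicate 3 (0.0849). Under IL-4, Socs2 (1.12), Socs5 (0.42), Socs7 (1.18) and Cish (1.45) stepped up from 0.5 to 1 h, beside 7.82% of all genes. The Cish step (adjusted p = 0.0224) was lost without IL-4 0.5 h replicate 2 (0.0984) or 3 (0.0565) and without IL-4 1 h replicate 1 (0.0530), 2 (0.0828) or 3 (0.0562), and the Socs5 step (0.0127) without IL-4 0.5 h replicate 3 (0.0517) or IL-4 1 h replicate 3 (0.0523). From 1 to 2 h of IL-4, Socs2 stepped up (0.76) and Socs5 down (-0.51), beside 9.40% of all genes, and the Socs2 step (0.0465) passed without IL-4 4 h replicate 1 or 3 and not without any other library (adjusted p from 0.0524 to 0.156). From 2 to 4 h Socs2 alone stepped down, beside 5.48%.

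The 2 stimuli were compared directly at each time, in 1 fit of all samples, to ask which members respond to one more than to the other. Socs3 and Socs7 were higher under LPS at all 4 times, and Socs2 and Socs6 were lower under LPS at all 4. Socs2 and Socs3 had passed the filter through 1 stimulus each, so their differences were to be found and are given as sizes. For Socs3 the LPS minus IL-4 difference was 4.79 (SE 0.34) at 0.5 h and 7.82 (SE 0.34) at 2 h. For Socs7 it was 1.12 (SE 0.21, adjusted p = 7.65e-05) and 2.97 (SE 0.21, adjusted p = 8.80e-12). For Socs2 it was -3.44 (SE 0.50) and -4.74 (SE 0.50). For Socs6 it was -2.21 (SE 0.19, adjusted p = 9.31e-10) and -0.98 (SE 0.19, adjusted p = 7.74e-05).

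Socs1 and Cish differed between the stimuli at some times and not at others. The Socs1 difference was -5.51 (SE 0.41, adjusted p = 9.83e-11) at 0.5 h and -4.08 (SE 0.41, adjusted p = 8.48e-09) at 1 h, and it was -0.27 (SE 0.41, adjusted p = 0.575) at 2 h and 0.00 (SE 0.41, adjusted p = 0.993) at 4 h. The Cish difference was -1.69 (SE 0.32, adjusted p = 0.000113) at 0.5 h, 0.38 (SE 0.32, adjusted p = 0.308) at 1 h, 0.96 (SE 0.32, adjusted p = 0.0114) at 2 h and -3.42 (SE 0.32, adjusted p = 1.87e-09) at 4 h. Cish was thus higher under IL-4 first and last. Its call in favour of LPS at 2 h was lost without LPS 2 h replicate 2 (0.81, adjusted p = 0.0561), without replicate 3 of all groups (0.0762) and with equal totals (0.33, adjusted p = 0.372). Socs5 was lower under LPS at 0.5, 2 and 4 h (-0.73, -1.37 and -1.73, SE 0.13), and not at 1 h (-0.18, SE 0.13, adjusted p = 0.229), where it did pass with equal totals (-0.65, adjusted p = 4.99e-05). Socs4 passed at 2 h only (0.30, SE 0.13, adjusted p = 0.0435). That call was lost without LPS 2 h replicate 1 (0.105) or 2 (0.166) and without IL-4 2 h replicate 2 (0.0893) or 3 (0.120), and turned to -0.32 with equal totals. Equal totals also passed Socs4 as lower under LPS at 1 h (-0.49, adjusted p = 0.00201) and 4 h (-0.35, adjusted p = 0.0203). In the other direction, median-of-ratios scaling passed it at 0.5 h (0.50, adjusted p = 0.00428) and 4 h (0.56, adjusted p = 0.00106), as did leaving out replicate 3 of all groups at 0.5 h (0.40, adjusted p = 0.0463) and LPS 4 h replicate 2 at 4 h (0.36, adjusted p = 0.0318).

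**Figure D3:**
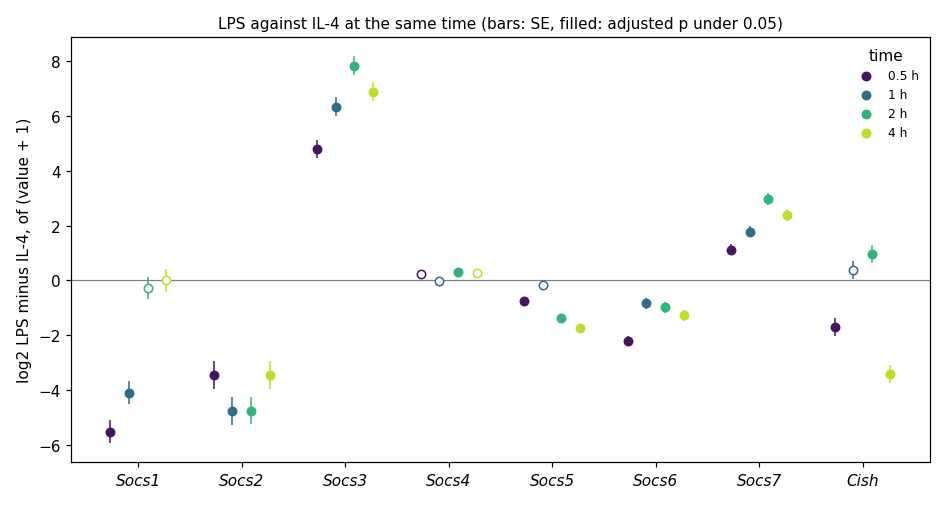
Log2 LPS minus IL-4 difference of (value + 1) (vertical axis) for the 8 members at 0.5 h, 1 h, 2 h and 4 h, with SE bars. Filled points passed the threshold of 0.05 on adjusted p. Socs1 moves from -5.51 at 0.5 h to 0.00 at 4 h, and Cish from -1.69 to 0.96 at 2 h and -3.42 at 4 h.

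By count, 2 members were higher and 5 lower under LPS than under IL-4 at 0.5 h, beside 18.0% and 35.8% of all tested genes. At 1 h these were 2 and 3 (24.0% and 40.5% of all genes), and at 2 h 4 and 3 (26.4% and 42.3%). At 4 h they were 2 and 4 (26.1% and 41.9%). Among these at every time were Socs3 (higher) and Socs2 (lower), which had passed the filter through 1 stimulus each. With equal totals 11.9% to 17.7% of all genes were higher and 50.3% to 60.4% lower under LPS, and the members numbered 2 and 5, 2 and 5, 2 and 4, and 2 and 5 in order of time. With median-of-ratios scaling they were 25.3% to 32.3% and 27.8% to 35.0%, with 3 and 5, 2 and 3, 4 and 3, and 3 and 4 members. The difference itself changed between times in 6 members, beside 72.2% of all tested genes, and in 24 of the 48 pairs of times of the members, beside 38.0% of such pairs over all tested genes (limma, a test added after the data were seen).

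Levels of different members were compared per kilobase of annotated transcript, in the group where each was highest. They were 147 for Socs1 (IL-4, 2 h), 166 for Socs3 (LPS, 2 h), 144 for Cish (LPS, 2 h) and 104 for Socs5 (IL-4, 1 h) normalised read counts per kilobase. Socs7 reached 79.8 (LPS, 2 h), Socs6 80.0 (untreated), Socs2 21.1 (IL-4, 2 h) and Socs4 15.5 (LPS, 0.5 h). Per kilobase of gene span, introns included, Socs7 and Socs6 came to 16.0 and 16.3 and Socs5 to 15.3, against 138 for Socs3, 114 for Socs1 and 70.8 for Cish. In untreated cells the order per kilobase of transcript began with Socs6 (80.0), Socs5 (38.8), Socs4 (13.7) and Socs7 (7.10), and the other 4 members were at 1.22 or less. Which parts of a gene were counted is not given in the sources used here, so both scales are shown.

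Over the 9 group means on the log2 scale, members differed in pattern. Pearson correlations between pairs, a description over 9 points that share libraries, ran from -0.83 between Socs3 and Socs6 to 0.80 between Socs3 and Socs4. Socs1 and Cish had 0.72, Socs1 and Socs2 0.66, and Socs3 and Socs7 0.77. The genes with the pattern most like Socs3, among 6743 varying protein-coding genes, were the chemokine genes Ccl4 (r = 0.996) and Ccl3 (0.993) and the survival gene Bcl2a1a (0.995), the last a member of a cluster of near-identical copies. Socs7 was closest to Otud5, Bdp1 (both 0.98) and Stat5a (0.98), and Socs6 to Me2 (0.99), Usf2 (0.98) and Zdhhc7 (0.97). Socs1 was closest to the inhibitory Fc receptor gene Fcgr2b (0.94), Scimp and Med15 (both 0.93), and Socs2 to Itga1, Rps6kc1 and Ap4s1 (all 0.97). For Cish, Mybbp1a (0.92), Fchsd2 and Eif5a (both 0.89) came closest, and for Socs5 Mrtfb (0.97), Pxdc1 (0.96) and Il1rl2 (0.95). For Socs4 they were Adhfe1, H3f3b (both 0.92) and Stat3 (0.91). Socs4 had no difference from untreated that passed, and its LPS differences depend on the scaling (above). This limits its correlations, both with members and with other genes.

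The courses of the nearest tested protein-coding genes on either side follow, and their likeness to the members was not tested. Pgs1, 17491 bases from Socs3, also rose after LPS, from a mean of 295 in untreated cells to 3874 at 2 h (3.72 on the log2 scale, F test adjusted p = 1.53e-12), and after IL-4 to 610 at 0.5 h (1.05, adjusted p = 0.000106). The other neighbour of Socs3, Tha1, rose from 12.3 to 84.7 at 4 h of LPS. Arhgap23, 51618 bases from Socs7, had a mean of 113 in untreated cells and 776 at 2 h of LPS (2.77, adjusted p = 6.39e-08), while Mrpl45 on the other side did not pass (adjusted p = 0.0710). Mapkapk3, 6782 bases from Cish, had a mean of 274 in untreated cells, 920 after 1 h of LPS and 52.0 after 4 h, and 532 to 607 after IL-4 (F test adjusted p = 2.81e-11 for LPS and 5.06e-07 for IL-4). Hemk1, on the other side, rose to 84.7 from 29.3 at 4 h of IL-4 (1.50, adjusted p = 0.000113).

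On the sides of Socs6, Rttn, 77583 bases away, fell from 562 to 54.0 at 4 h of LPS (-3.45, adjusted p = 4.29e-05) and to 219 at 2 h of IL-4 (-1.40, adjusted p = 0.00442), and Fbxo15, the nearest tested gene on the other side at 3883696 bases, fell from 10.3 to 1.67 at 0.5 h of LPS. Next to Socs4, Mapk1ip1l rose from 166 to 599 at 2 h of LPS (1.84, adjusted p = 1.70e-08), and Wdhd1, which lies on the other strand with its start 63 bases away, fell from 52.3 to 4.00 at 4 h (-3.18, adjusted p = 0.00123). Next to Socs2, Cradd fell after LPS (-2.47, adjusted p = 8.01e-10) and rose after IL-4 (0.62, adjusted p = 0.000520), and Mrpl42 fell after LPS (-3.17, adjusted p = 5.08e-05) and did not pass after IL-4 (0.356). Next to Socs1, Clec16a had its largest LPS change at 1 h (-0.69, adjusted p = 0.000248) and rose after IL-4 (0.57, adjusted p = 0.000240), and Rmi2 rose after IL-4 (1.08, adjusted p = 0.0303). Next to Socs5, Mcfd2 fell after LPS (-1.26, adjusted p = 0.000244), and Cript passed in neither course (0.903 and 0.258).

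The other genes of the pathway were followed by lists, counting those that passed the F test by the sign of their largest change. Among all tested genes 32.9% rose and 54.7% fell after LPS by this count, 87.6% in all, and 19.4% rose and 20.9% fell after IL-4, 40.3% in all. The share of a list that passed after LPS (90.9% to 100%) is thus near that of all genes. Of 11 JAK and STAT genes, 9 rose and 1 fell after LPS, with a median largest change of 1.91 beside -1.0 for all tested genes. The largest were Jak2 (5.18, from a mean of 161 in untreated cells to 5839 at 2 h), Stat5a (4.89, to 2545 at 2 h) and Stat2 (3.98, to 3484 at 4 h), and the 1 counted as a fall was Stat6 (-1.20 at 4 h), the factor of the IL-4 receptor. Its mean was 226 in untreated cells, 472 and 415 at 0.5 and 1 h of LPS, and 108 and 99.0 at 2 and 4 h, so that it was above the untreated mean before it was below. After IL-4, 3 rose and 4 fell (63.6% of the list), with a median of -0.34 beside -0.16 for all genes. Stat4 fell (-2.62, from 37.3 to 5.33 at 4 h), and Jak2 (1.89) and Stat2 (1.04) rose.

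Of 11 other curbs on this signalling, 7 rose and 4 fell after LPS (median 0.56), beside 32.9% and 54.7% of all tested genes. The largest change was that of Usp18, an inhibitor at the type I interferon receptor (6.19, from 54.7 to 4013 at 4 h). Pias3 (-2.18) and the phosphatase gene Ptpn2 (2.01) came next. After IL-4, 4 rose and 4 fell (72.7% of the list, median -0.18), beside 40.3% of all tested genes. The largest changes were those of the phosphatase genes Ptprc (-1.35), Ptpn2 (1.06) and Ptpn6 (-0.87). Of the 8 genes listed as partners of the SOCS box ligase, 5 rose and 3 fell after LPS (median 0.81), beside the same 32.9% and 54.7%. The 3 that fell were Rnf7 (-1.17, from a mean of 17.0 in untreated cells to 7.33 at 0.5 h), Cul5 (-1.04, from 161 to 78.0 at 0.5 h) and Rbx1 (-0.44). Ube2f (2.85), Arih2 (2.74) and Cul2 (1.44) were at the top. After IL-4 only Rbx1 passed (0.51, 12.5% of the list, median 0.03), beside 40.3% of all tested genes.

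Of 27 other SOCS box proteins 18 were tested, and after LPS 5 rose and 12 fell (median -1.51), beside 32.9% and 54.7% of all tested genes. Spsb1 (4.98) and Asb13 (3.42) rose and Asb2 (-3.32) fell. After IL-4, 3 rose and 4 fell (38.9% of those tested, median 0.51), beside 40.3% of all tested genes. The largest changes were in Asb5 (1.57) and Spsb4 (-1.56). Both had low levels, with means of 8.67 and 7.0 in untreated cells and 27.7 and 1.67 at 4 h. Of 20 receptor chains 19 were tested, of which 14 rose and 4 fell after LPS (median 1.02), beside the same 32.9% and 54.7%. After IL-4, 8 rose and 4 fell (63.2% of those tested, median 0.28), beside 40.3% of all tested genes. Il15ra (5.32) and Osmr (3.68) rose and Lifr (-4.85) fell after LPS. Osmr had low levels, with a mean of 1.67 in untreated cells and 28.3 (SD 12.1) at 2 h of LPS. After IL-4, Il13ra1 fell (-2.10) and Il4ra, the IL-4 receptor chain, rose (1.69), as did Il6st, which encodes gp130 (1.20).

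Of 15 cytokines that act through JAK-STAT receptors 11 were tested, and all 11 rose after LPS (median 4.65). Of all tested genes 32.9% rose and 54.7% fell (median -1.0). However, these cytokine genes too passed the filter largely through LPS samples. Il12b (9.09) was at 0 in untreated cells and at a mean of 550 at 1 h. Il6 (8.27) reached 388 and Il27 (8.18) 1328 at 4 h. After IL-4 none rose and Il10 (-1.44) and Il15 (-0.90) fell (18.2% of those tested, median -0.33). Of all tested genes 19.4% rose and 20.9% fell, 40.3% in all (median -0.16). Il10 went from a mean of 7.33 in untreated cells to 2.0 at 4 h, both under the filter minimum of 10. Il15 went from 1255 to 672 at 4 h.

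**Figure D4:**
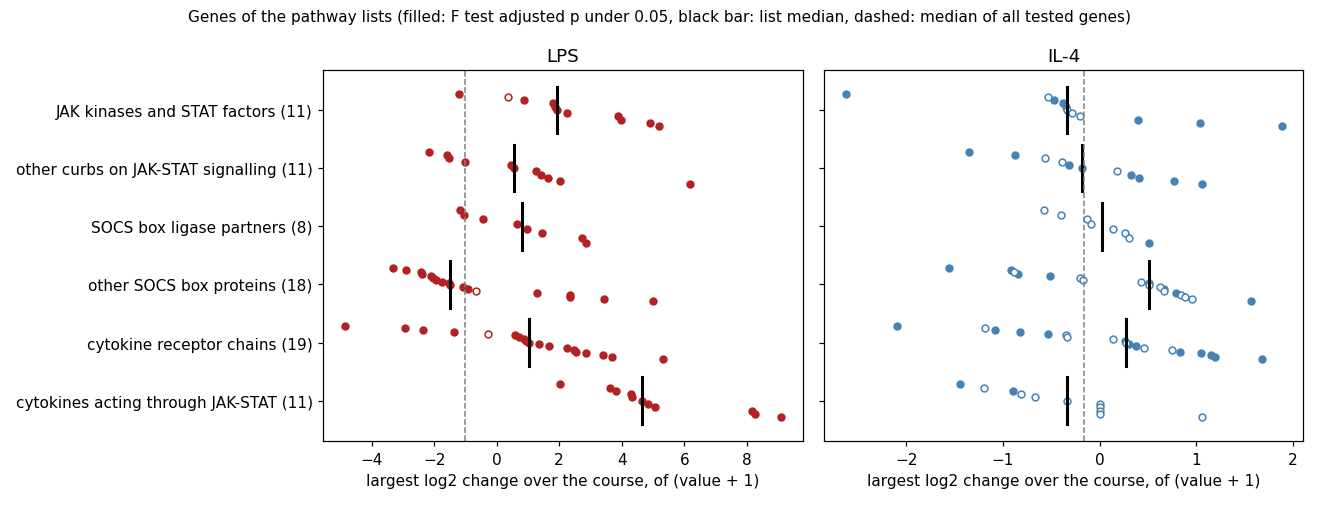
Largest log2 change of (value + 1) over the LPS course (left) and the IL-4 course (right) for each tested gene of 6 pathway lists, with the number tested in brackets. Filled points passed the F test, black bars are list medians, and dashed lines are the medians of all tested genes, -1.0 and -0.16. All 11 cytokines lie above 0 after LPS, and most SOCS box ligase partners are open points after IL-4.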

How the data were processed

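Chromatin-associated RNA of BMDMs was measured by the authors with a SMART-seq2 protocol primed with random primers and single-end NextSeq500 sequencing. Per the submitters' processing notes and the study's methods, reads were aligned to mm10 with TopHat2 2.1.1, reads with several hits or in blacklisted regions were removed (bedtools 2.29.2), and reads were counted per RefSeq gene. The deposited score is a read count that the authors scaled on invariant genes and rounded to whole numbers. It is not a raw count, and depth per sample is unknown. No sample column was left unmapped.

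Tests used limma 3.58.1 (R 4.3.3) on log2(value + 1), with a trend of the variance on the mean. P-values were adjusted by Benjamini-Hochberg over the 13901 genes with at least 10 in at least 3 of the 27 samples, at a threshold of 0.05. Each course was fitted with its 12 samples and the 3 untreated samples, and LPS was set against IL-4 in 1 fit of 27. The study's impulse model was not run here. The fits were tested on simulated data, in which samples were independent and had no pairing by replicate. Python 3.11.15 served for lists, neighbours and motifs.

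Same-numbered samples of different groups deviated together in all 108 pairs (r from 0.163 to 0.851 over 6827 genes), so the numbers pair the samples. This comes from the data and not from the labels. The main fits did not use this pairing, and the replicate block among the alternatives did. Replicates 2 and 3 were more alike (SD of log2 ratios 0.138 to 0.287) than either was to replicate 1 (0.370 to 0.496). With the depth unknown they were not tested against counting noise, and were kept apart because the labels list them as separate samples.

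All 8 members, any gene overlapping a member and the nearest tested protein-coding gene on each side were named. So were the 3 genes most alike over the 9 group means, among genes with a highest group mean of at least 50 and a range of at least 1. At most 3 genes per list and stimulus were named by the size of the change. Stat6, Ptpn6 and the SOCS box ligase genes that fell after LPS were named as well. The members, lists and motifs were chosen with earlier results of these data known. Alternatives were pseudocounts of 0.5 and 8, no filter or a mean of at least 50, median-of-ratios and equal-total scaling, array weights, the replicate block, all samples in 1 fit, left-out replicates or libraries, and replicates 2 and 3 averaged. Promoter windows of 4 members were matched by symbol in RefSeq sequences of the same assembly. No windows of Socs2, Socs5 and Socs7 were available, and the sequence of Socs6 was not used here. The marker list of 1 other cell type is not reported here.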

Additional observations from a re-analysis of the deposited data

Results flagged for a closer look

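The LPS minus IL-4 difference changed between times in 6 of the 8 members, beside 72.2% of all tested genes, by a test of that change added after the data were seen (limma, 6 pairs of times per member, adjusted over all tested genes). Of 48 such changes 24 passed, beside 38.0% of those of all tested genes. The largest per member was 5.51 for Socs1 from 0.5 to 4 h (SE 0.59, adjusted p = 2.90e-08), and 3.04 for Socs3 from 0.5 to 2 h (SE 0.49, adjusted p = 1.33e-05). It was -4.38 for Cish from 2 to 4 h (SE 0.46, adjusted p = 3.74e-07), where all 3 LPS samples fell below the IL-4 samples. It was -1.55 for Socs5 from 1 to 4 h (SE 0.18, adjusted p = 1.64e-07), 1.37 for Socs6 from 0.5 to 1 h (SE 0.27, adjusted p = 0.000308) and 1.84 for Socs7 from 0.5 to 2 h (SE 0.29, adjusted p = 1.35e-05). The size of the Socs3 change depends on low IL-4 values, which were at most 11. From 0.5 to 2 h its difference from untreated cells went from 1.11 to -1.06 after IL-4. After LPS it went from 5.89 to 6.77. With a pseudocount of 8 the Socs3 change was 1.66 and still passed. Socs3 had also passed the filter through the LPS samples. None of the 12 changes of Socs2 and Socs4 passed, although with a pseudocount of 8 that of Socs2 from 0.5 to 1 h did (-0.91, adjusted p = 0.00424). With 3 samples per group, single samples were not tested as outliers.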

How the results depend on the processing

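Of 5503 recomputed values over 40 settings, 5366 kept their direction and side of the threshold, or a count within 1.5 times, and 92 lost and 41 gained a call. A further 74 changed sign without passing in either fit and were counted as kept. The 4 reversals with a call were Socs4 with equal totals, at LPS 2 h (-0.52) and 4 h (-0.45) and for LPS minus IL-4 at 2 h (-0.32) and 4 h (-0.35), and with equal totals its LPS F test also passed (0.0138). Median-of-ratios scaling gave 6 members changed at 0.5 h of LPS in place of 3. The IL-4 F test of Socs3 had an adjusted p of 0.0614 without a filter and 0.192 with replicates 2 and 3 averaged. Over left-out replicates or libraries it ran from 0.00271 to 0.282. That of Socs6 ran from 0.00405 to 0.476 and that of Socs7 from 0.00186 to 0.0639. With the replicate block the Socs6 F test passed (0.00145), Socs6 passed at 0.5, 1 and 4 h of IL-4, Socs7 at 2 h of IL-4, and the IL-4 steps of Socs3 from 1 to 2 h (0.0459) and Socs7 from 2 to 4 h (0.0481) passed. The block changed no other call. Averaging replicates 2 and 3 ended 13 calls: Socs5 at LPS 2 h, its LPS step from 2 to 4 h and its first 2 IL-4 steps, all 3 IL-4 steps of Socs2, the IL-4 F test of Socs3, Socs6 at IL-4 2 h, Socs7 at IL-4 0.5 h and its step from there, the Cish IL-4 step from 0.5 to 1 h and Socs4 for LPS minus IL-4 at 2 h. Leaving out replicate 2 or 3 of every group also ended IL-4 steps of Socs2, Socs5, Socs7 and Cish. Leaving out replicate 3 ended the LPS steps of Socs1 from 0.5 to 1 h (0.0810) and Cish from 1 to 2 h (0.0509). The causes were not tested. Values of 5 or less in unstimulated cells limit the size, not the direction, of the largest rises.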
